A study of Mus musculus with 8 samples.

Results

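The genes that make, bind, sense and destroy retinoic acid were followed across mouse pluripotent cells of 2 states. The 9 chosen were Rdh10, Dhrs3, Cyp26a1, Crabp1, Crabp2, Rxra, Rara, Rarb and Rarg. They were picked by name from the pathway, and all 9 were found among the 22987 genes that the tables list at 1 locus, out of 23699 entries. Expression of 8 of them was high enough to test, and Rarb fell below the filter of at least 1 FPKM in at least 4 libraries. FPKM count fragments relative to the length of the transcript and the size of the library, so levels of different genes can be set side by side.

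Retinoic acid is a small lipid signal made inside cells from vitamin A. Retinol is oxidised to retinal and then to retinoic acid, which enters the nucleus and binds a retinoic acid receptor (RAR) paired with a retinoid X receptor (RXR) on DNA. Enzymes of the CYP26 family oxidise retinoic acid and so end the signal, and several genes of the pathway, Cyp26a1 and Rarb among them, are textbook targets of the receptors. In the early mouse embryo the signal acts after the epiblast has formed, and pluripotent cells that are given retinoic acid differentiate.

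The study sequenced polyadenylated RNA (TruSeq libraries) from 4 libraries of embryonic stem cells (mESC), the naive state, and 4 of epiblast stem cells (mEpiSC), the primed state. Replicates 1 and 2 of mESC were of the line ESF122, and replicates 3 and 4 of the line ESF175/1, all kept with the cytokine LIF. Of mEpiSC, replicate 1 was of the line EpiSC5, replicates 2 and 3 were of EpiSC7 and replicate 4 was of EpiSC9, all kept with the growth factor FGF2. Both states shared a base medium with Knockout Serum Replacement and a layer of irradiated mouse embryonic fibroblasts, which was removed before RNA was taken. No treatment with retinoic acid and no genetic change is named in the labels, and none tells whether 2 libraries of a line were grown apart. The p-values therefore measure only the spread between these libraries, which may be technical.

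The intervals given with the values implied 24800000 to 38600000 fragments per library. Summed over Pou5f1, Nanog and Sox2, the core pluripotency factors reached 692.3 to 830.1 FPKM in mESC and 454.2 to 854.2 in mEpiSC. The 5 naive markers summed to 142.5 to 288.7 FPKM in mESC and 4.4 to 6.5 in mEpiSC. The 3 primed markers, Fgf5, Otx2 and Pou3f1, summed to 19.9 to 44.8 in mESC and 64.8 to 246.8 in mEpiSC. Fgf5 and Otx2 were higher in mEpiSC without overlap. Pou3f1 overlapped, with means of 12.4 FPKM in mESC and 11.9 in mEpiSC. Markers of other cells also differed. The 15 fibroblast markers summed to 278.6, 58.9, 54.3 and 16.6 FPKM in mESC 1 to 4 and to 592.0, 323.9, 229.1 and 242.3 in mEpiSC 1 to 4. The 7 mesendoderm markers summed to 4.6, 57.5, 4.4 and 5.2 FPKM in mESC and to 1081.5, 192.4, 187.1 and 82.3 in mEpiSC, and 6 primitive endoderm markers to 3.0 to 5.5 and 12.9 to 78.5. The 5 neuroectoderm markers summed to 21.5 to 43.7 FPKM in mESC and 8.1 to 26.5 in mEpiSC, with overlap. Of these, Tubb3 was lower in mEpiSC without overlap, with means of 25.2 FPKM in mESC and 8.47 in mEpiSC. Pax3 and Zic1, at means of 1.33 and 1.14 FPKM in mEpiSC, were higher there without overlap. No marker of the fibroblast, mesendoderm or primitive endoderm lists was listed at 0 in any library. In mESC 2 most of the mesendoderm sum was T, the brachyury gene, at 38.8 FPKM against 1.95 to 2.94 in the other 3 mESC libraries. In bulk RNA, fewer cells of a type and less RNA per cell cannot be told apart. The part of these other cells in the values below was not tested.

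Receptor pairs bind DNA at repeats of a 6-base half-site, and the promoter sequences are shown because they show which of the 9 genes hold such a repeat at their start. The 250 bases before each RefSeq start (GRCm38.p6, a later build than that of the deposited tables) were searched on both strands for pairs of the half-site AGGTCA, its variant AGTTCA, a further variant GGGTCA and a last variant GGTTCA, both members of a pair in the same direction with 5 bases between them (a repeat called DR5). Windows were given for 7 of the 9 genes, 14 windows in all, with none for Rdh10 or Crabp2. Cyp26a1 (chr19:37697558-37697807, plus strand) and Rarb (chr14:16575477-16575726, minus strand) each held such a repeat, in their only window. The other 5 genes held none in these windows, which says only that these letters are not there. Both windows are written here in the direction of the gene with the half-sites in capitals. The last base is the one before the start.
Cyp26a1: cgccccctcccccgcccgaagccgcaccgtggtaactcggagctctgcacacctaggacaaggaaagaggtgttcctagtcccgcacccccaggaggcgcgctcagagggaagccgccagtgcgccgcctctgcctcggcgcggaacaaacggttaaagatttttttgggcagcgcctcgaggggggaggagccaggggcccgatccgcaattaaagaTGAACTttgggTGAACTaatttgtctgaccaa
Rarb: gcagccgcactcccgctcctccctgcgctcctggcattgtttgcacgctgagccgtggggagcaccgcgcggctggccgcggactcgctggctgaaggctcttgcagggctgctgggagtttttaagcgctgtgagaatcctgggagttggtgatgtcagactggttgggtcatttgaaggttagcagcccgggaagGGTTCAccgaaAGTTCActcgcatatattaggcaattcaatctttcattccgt

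In Cyp26a1 the repeat lay on the opposite strand, 32 to 16 bases before the start, and in Rarb on the strand of the gene, 53 to 37 bases before it. Read along the repeat, with the half-sites again in capitals, they share their second half-site and differ in the first and in the spacer.
Cyp26a1: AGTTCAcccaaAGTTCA
Rarb: GGTTCAccgaaAGTTCA

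Such repeats were rare: 29 of 32851 windows (0.0883%) held one. Among 41 genes of the wider pathway lists with a window, these were the only 2. Repeats with a spacer of 1 base (DR1, in 0.164% of windows) or 2 bases (DR2, 0.174%) were found in none of the 14 windows, so the 2 DR5 repeats overlapped no other repeat searched. The match describes the letters and does not show that a receptor binds there.

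**Figure D1:**
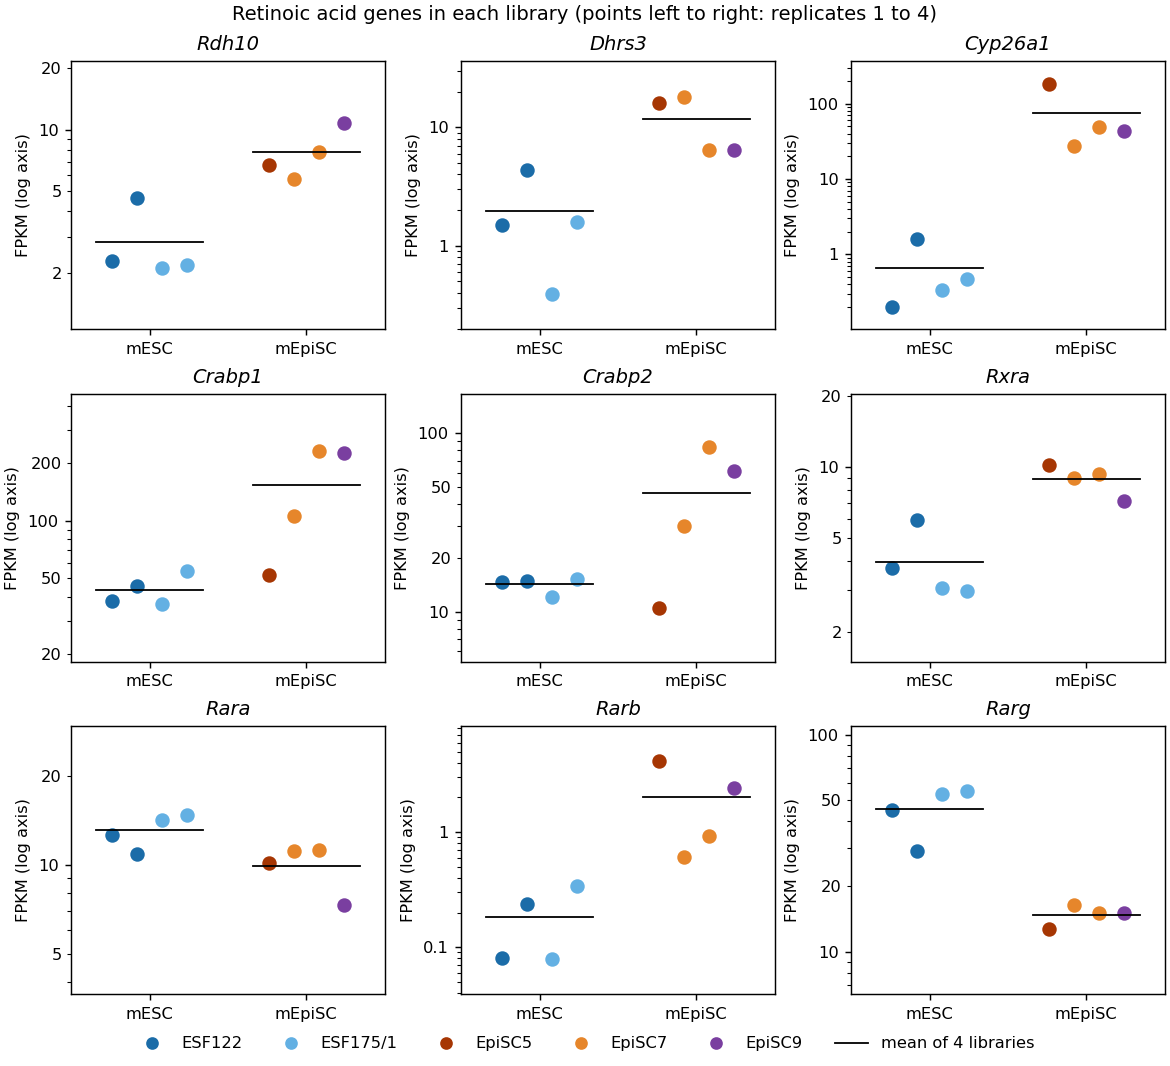
FPKM of the 9 genes (logarithmic vertical axes) in each of the 8 libraries, coloured by cell line, with points ordered by replicate number within a state and a bar at the mean of 4 libraries. In 5 genes all 4 mEpiSC libraries lie above every mESC library, in Rarg they lie below, and Crabp1, Crabp2 and Rara overlap.

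Between the states, 5 of the 9 genes were higher in mEpiSC at a Benjamini-Hochberg adjusted p under 0.05 (Cyp26a1, Dhrs3, Crabp1, Rdh10 and Rxra) and Rarg was lower. Crabp2 and Rara did not pass, and Rarb was outside the test. The test was limma on log2(FPKM + 1) over 11556 genes, of which 37.3% passed, 23.1% in the direction of mEpiSC and 14.2% in that of mESC. The 6 that passed are 75.0% of the 8 tested, from a set chosen with earlier results in view. In 6 of the 9 genes the libraries of the states did not overlap, 5 with mEpiSC above (Cyp26a1, Dhrs3, Rdh10, Rxra and Rarb) and 1 below (Rarg). Among the 8 tested it was 5, while 37.1% of all tested genes showed no overlap, 22.2% with mEpiSC above and 14.9% below. The median difference of the 8 was 1.25 on the log2 scale beside 0.08 over all genes tested. Differences below are given on that log2 scale as mEpiSC less mESC, and the added 1 makes those of low genes too small. Scaling by median ratios or quantiles moved the median of all genes to -0.01 and -0.02, and the share of genes higher in mEpiSC among those called from 61.9% to 51% and 49.8%. Under both scalings each of the 8 genes kept its direction.

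Rdh10 and Dhrs3 are a pair of opposed enzymes of retinal, and both were higher in mEpiSC. Other enzymes that act on retinal are given with the wider lists below. Rdh10, the retinol dehydrogenase that oxidises retinol to retinal (chromosome 1, 16095963 to 16122631, mm9), measured 2.29, 4.65, 2.11 and 2.19 FPKM in mESC 1 to 4 and 6.71, 5.77, 7.83 and 10.9 in mEpiSC 1 to 4. The states did not overlap, although mESC 2 lay well above the other 3 mESC libraries. The difference was 1.22 (SE 0.24, limma adjusted p = 0.00486), with a mean of 2.81 ± 1.23 against 7.80 ± 2.21 (SD, n = 4 each).

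Dhrs3, a reductase that turns retinal back to retinol and is itself induced by retinoic acid (chromosome 4, 144482730 to 144517548), measured 1.51, 4.38, 0.395 and 1.60 FPKM in mESC and 16.0, 18.1, 6.37 and 6.41 in mEpiSC. Again mESC 2 was the highest of the mESC libraries, and it stayed below the lowest mEpiSC library. EpiSC5 and the first EpiSC7 library stood above the other mEpiSC libraries, so the 2 libraries of EpiSC7 fell on either side of that gap. The difference was 2.13 (SE 0.46, limma adjusted p = 0.00676), with means of 1.97 ± 1.70 and 11.7 ± 6.19 FPKM (SD, n = 4). Rdh10 exceeded Dhrs3 in all 4 mESC libraries, with a ratio of 1.06 to 5.35. In mEpiSC the ratio was 0.421, 0.320, 1.23 and 1.69 in libraries 1 to 4, below 1 in EpiSC5 and in 1 of the EpiSC7 libraries.

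Breakdown showed the widest gap of the 9 genes. Cyp26a1, which hydroxylates retinoic acid as the first step of its removal (chromosome 19, 37772298 to 37776026), measured 0.203, 1.59, 0.333 and 0.471 FPKM in mESC and 184.1, 27.7, 49.4 and 43.0 in mEpiSC. The deposited intervals imply 14 to 161 fragments behind the mESC values and 2115 to 17287 behind those of mEpiSC. EpiSC5 stood far above the other mEpiSC libraries, and mESC 2 above the other mESC libraries, yet the lowest mEpiSC library was still well clear of mESC 2. The difference was 5.22 (SE 0.52, limma adjusted p = 0.000207), the second largest rise of all 11556 genes tested, and 4.67 without EpiSC5. Group means were 0.649 ± 0.635 and 76.1 ± 72.6 FPKM (SD, n = 4).

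The order of libraries within the states can be set beside the markers of other cells. Fibroblast markers summed to 278.6 FPKM in mESC 1, more than in mEpiSC 3 and 4. Contractile genes made much of the sum in mEpiSC 4, with Tagln at 145.1 FPKM and Acta2 at 35.0, while the collagen gene Col1a1 was 78.4 FPKM in mESC 1, 51.4 in mEpiSC 3 and 7.92 in mEpiSC 4. Cyp26a1 was 0.203 FPKM in mESC 1 and 49.4 and 43.0 in those mEpiSC libraries. Mesendoderm markers were highest in EpiSC5 among the mEpiSC libraries and in mESC 2 among the mESC libraries, the same 2 libraries that held most Cyp26a1. Different markers of the list made these sums: T was lowest in EpiSC5 among the mEpiSC libraries (20.9 FPKM against 23.1 to 46.8), where Cer1, a secreted inhibitor of Nodal and BMP signals, reached 838.9 FPKM against 33.8 to 121.8 in the other 3. Their part in the level of Cyp26a1 was not tested.

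The 2 other CYP26 genes, chosen here after their values were seen, were too low to test. Cyp26b1 measured 0.0187 to 0.521 FPKM in mESC and 0.429 to 3.78 in mEpiSC, with overlap, and Cyp26c1, the neighbour of Cyp26a1 on chromosome 19, 0.000 to 0.0951 and 0.583 to 4.20, without. Fitted without the filter they reached limma adjusted p = 0.0833 and 0.0854. In mEpiSC, Cyp26a1 was therefore the CYP26 gene with by far the highest level in each of the 4 libraries.

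**Figure D2:**
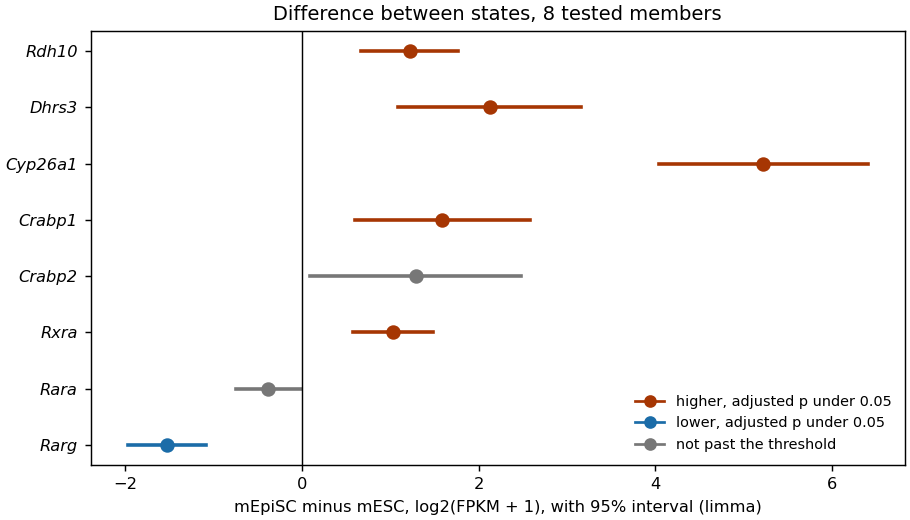
Difference between the states (mEpiSC minus mESC, log2(FPKM + 1)) for the 8 tested genes with the 95% interval of the limma fit. Cyp26a1 lies farthest to the right at 5.22, Rarg is the one gene called lower at -1.52, and the intervals of Crabp2 and Rara come closest to 0.

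Crabp1 and Crabp2, a pair of small proteins that carry retinoic acid in the cytoplasm, were among the most abundant of the 9 genes in both states. Crabp1, which holds retinoic acid in the cytosol (chromosome 9, 54612615 to 54620916), measured 38.1, 45.4, 36.5 and 54.3 FPKM in mESC and 52.0, 106.6, 232.7 and 228.2 in mEpiSC. The EpiSC5 library lay inside the mESC range, and the other 3 mEpiSC libraries lay above it. The difference was 1.59 (SE 0.44, limma adjusted p = 0.0201). That call is fragile: the adjusted p was 0.0787 without the filter on low genes, 0.0506 without mESC 1, 0.0568 without mESC 3, 0.0542 without mEpiSC 3, 0.0696 with line as a random block and 0.16 with libraries averaged to 1 value per line.

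Crabp2, which delivers retinoic acid to the receptors in the nucleus (chromosome 3, 87752615 to 87757294), measured 14.7, 14.8, 12.1 and 15.2 FPKM in mESC and 10.5, 30.1, 83.1 and 61.1 in mEpiSC. The mESC libraries were close together, and the mEpiSC libraries ran from below the lowest mESC value in EpiSC5 to well above the highest in EpiSC7 and EpiSC9. The difference of 1.29 (SE 0.53, 95% interval 0.09 to 2.48) did not pass over all genes, with a limma adjusted p of 0.0851. It rested on the EpiSC5 library: without it the difference was 1.85 and the limma adjusted p = 0.00363.

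The pair moved alike across libraries. Crabp1 was 2.59 to 3.57 times the level of Crabp2 in mESC and 2.80 to 4.96 times in mEpiSC, although both varied several-fold among the mEpiSC libraries. Of 10627 genes compared over the 8 libraries, Crabp2 was the gene with the pattern most like Crabp1, and Crabp1 the one most like Crabp2, with a root mean square difference of 0.26 between centred log2 values. Hoxb2, a homeobox gene of the HoxB cluster, came next for both, at 0.28 and 0.34. Hoxb2 itself was low, at 0.125 to 1.09 FPKM in mESC, 0.249 in EpiSC5 and 2.81 to 7.21 in the other mEpiSC libraries. The next gene was Id2 (0.32) for Crabp1 and Lrrn1 (0.43) for Crabp2.

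Cyp26a1 and Dhrs3 had other nearest genes by the same measure. For Cyp26a1 they were Asb4 (0.59), Slc39a8 (0.67) and Amot (0.89), all highest in EpiSC5, and for Dhrs3 they were Cd40 (0.30), Agpat3 (0.41) and Mycl1 (0.41). These likenesses describe 8 libraries that share their states, lines and depth, and they carry no test. The other 5 genes varied too little over the libraries for this measure, with an SD under 1 on the log2 scale.

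Rxra, one of the RXR partners with which every RAR binds DNA (chromosome 2, 27532721 to 27618839), was higher in mEpiSC. It measured 3.73, 5.98, 3.08 and 3.00 FPKM in mESC and 10.2, 9.01, 9.31 and 7.18 in mEpiSC. The states did not overlap, with mESC 2 the nearest mESC library and EpiSC9 the lowest of the mEpiSC libraries. The difference was 1.03 (SE 0.20, limma adjusted p = 0.00418), and its adjusted p was 0.0543 with libraries averaged to 1 value per line. Rxrb, the partner with the highest level of the 3 RXR genes, did not pass, although the states did not overlap. It measured 15.4, 18.0, 15.0 and 18.4 FPKM in mESC and 18.8, 21.9, 21.0 and 20.4 in mEpiSC. The difference was 0.29 (limma adjusted p = 0.0766), and Rxrb was called higher in 2 of its alternatives. Rxra stood at 0.163 to 0.333 times the level of Rxrb in mESC and 0.352 to 0.543 times in mEpiSC.

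Rarg was the most abundant of the 3 RAR genes in every library of both states and the one gene of the 9 called lower in mEpiSC. Rarg (chromosome 15, 102065371 to 102087914) measured 45.2, 29.1, 53.5 and 54.8 FPKM in mESC and 12.7, 16.4, 15.0 and 15.0 in mEpiSC. The mEpiSC libraries were close together and all below mESC 2, itself the lowest of the mESC libraries. The difference was -1.52 (SE 0.20, limma adjusted p = 0.000718), from 45.7 ± 11.8 to 14.8 ± 1.53 FPKM (SD, n = 4).

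Rara, the most widely expressed RAR (chromosome 11, 98799010 to 98836256), did not pass the test. It measured 12.6, 10.9, 14.1 and 14.8 FPKM in mESC and 10.2, 11.1, 11.2 and 7.30 in mEpiSC. The states overlapped, since mESC 2 lay below mEpiSC 2 and 3. The difference of -0.38 (SE 0.16, 95% interval -0.74 to -0.01) had a limma adjusted p of 0.0953. After quantile normalization it was -0.48, with an adjusted p of 0.0452, which passes. Of its 50-base windows 0.234% also occur in transcripts of other genes, against 0.000% for each of the other 8 genes.

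Rarb, the receptor gene that retinoic acid itself induces (chromosome 14, 17263354 to 17407724), was the lowest of the 9 genes in both states. It measured 0.0800, 0.236, 0.0782 and 0.341 FPKM in mESC, from 9 to 38 implied fragments, and 4.18, 0.605, 0.925 and 2.44 in mEpiSC, from 74 to 676. Every mEpiSC library was above every mESC library, with EpiSC5 and EpiSC9 above both EpiSC7 libraries. The difference was 1.21, with p = 0.0286 by a two-sided exact permutation test, the smallest that 4 libraries against 4 can give. With libraries of the same number taken as pairs, an exact sign-flip permutation test, added after seeing the data, gave p = 0.125, again the smallest possible, so that design cannot pass 0.05. Fitted without the filter, it had a limma adjusted p of 0.0755, and leaving out any 1 library raised the smallest p that this exact test can reach to 0.0571, the value found each time.

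Exons of Rarb overlap those of Top2b, a topoisomerase gene on the opposite strand, in GENCODE, and how the counting used strand is not given in the sources used here. Top2b measured 13.1 ± 2.74 FPKM in mESC and 37.1 ± 6.63 in mEpiSC (SD, n = 4). Within mEpiSC 1 to 4 it measured 37.2, 36.4, 45.6 and 29.4 FPKM, beside 4.18, 0.605, 0.925 and 2.44 of Rarb. The deposited mm9 intervals of the genes do not overlap: Top2b ends at 17263301 and Rarb starts at 17263354 on chromosome 14. Where the GENCODE exons overlap, reads of the 2 genes could be told apart only by strand. The part of this in the Rarb values was not tested.

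**Figure D3:**
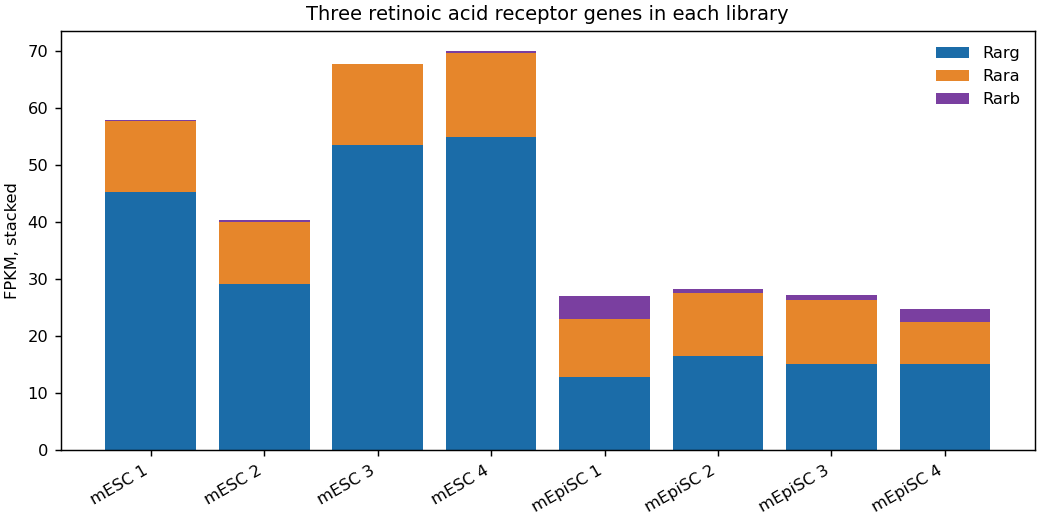
FPKM of Rara, Rarb and Rarg stacked for each of the 8 libraries, on a linear axis from 0. The total is 40.3 to 70.0 FPKM in mESC and 24.8 to 28.1 in mEpiSC, and most of the drop is in the Rarg segment.

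Added together, the 3 RAR genes reached 57.9, 40.3, 67.7 and 70.0 FPKM in mESC and 27.1, 28.1, 27.2 and 24.8 in mEpiSC. The sum was lower in every mEpiSC library, and its make-up differed too. Rarg made up 72.3% to 79.0% of the sum in mESC and 47.1% to 60.7% in mEpiSC. Rarb, the smallest share in every library, was 0.116% to 0.587% in mESC, and in mEpiSC it was 15.4% in EpiSC5, 9.83% in EpiSC9 and 2.15% and 3.40% in the EpiSC7 libraries. Rarg was 2.67 to 3.78 times Rara in mESC and 1.26 to 2.06 times in mEpiSC. These sums and shares are descriptions of the same values and were not tested.

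Ranked by mean level in mESC, the 9 genes ran from Rarg (45.7 FPKM) and Crabp1 (43.6) through Crabp2 (14.2) and Rara (13.1) to Rxra (3.95), Rdh10 (2.81), Dhrs3 (1.97), Cyp26a1 (0.649) and Rarb (0.184). Ranges of neighbours were apart only between Crabp1 and Crabp2 and between Rara and Rxra. In mEpiSC the order was Crabp1 (154.9 FPKM), Cyp26a1 (76.1), Crabp2 (46.2), Rarg (14.8), Dhrs3 (11.7), Rara (9.94), Rxra (8.93), Rdh10 (7.80) and Rarb (2.04), and only Rdh10 and Rarb had ranges apart. The place of Cyp26a1 by its mean was that of no single mEpiSC library: it was above both binding proteins in EpiSC5 and below both in the other 3 libraries.

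The libraries within a state also differed in these genes. mESC 2 was the mESC library nearest to the mEpiSC mean for 6 of the 9 genes and mESC 4 for the other 3. Some library must be nearest for each gene, and the same count over all genes was not made. In mESC 2 the 7 mesendoderm markers summed to 57.5 FPKM against 4.4 to 5.2 in the other mESC libraries. Leaving out mESC 2 must widen the differences of genes for which it lies nearest to mEpiSC, and without it they were 1.43 for Rdh10, 2.47 for Dhrs3, 5.46 for Cyp26a1, 1.21 for Rxra and -1.72 for Rarg.

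Between the mESC lines, 0 of the 8 tested genes passed (limma, ESF175/1 minus ESF122, 0.762% of all genes passing), with 2 at an unadjusted p under 0.05: Rarg at 0.57 (unadjusted p = 0.0346) and Rxra at -0.51 (unadjusted p = 0.0466). Among the 34 tested genes of the wider pathway, Dhrs4 alone passed between these lines. Dhrs4, a reductase that acts on retinal, measured 22.4 and 21.0 FPKM in ESF122 and 7.77 and 8.92 in ESF175/1 (difference -1.28, SE 0.15, limma adjusted p = 0.0188). Without mESC 1 or mESC 2 its adjusted p was 0.102 and 0.163, without mEpiSC 2 or mEpiSC 3 it was 0.0731 and 0.0737, and without the filter it was 0.0558.

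Among the mEpiSC lines, again 0 of the 8 genes passed, here by a limma F test that 2.6% of all genes passed, and 3 had an unadjusted p under 0.05: Cyp26a1 (adjusted p = 0.0871), Crabp2 (0.0961) and Crabp1 (0.108). Against EpiSC7, the EpiSC5 library was 2.28 higher on the log2 scale for Cyp26a1, 2.16 lower for Crabp2 and 1.58 lower for Crabp1. Of the 4 mEpiSC libraries it was thus highest for the breakdown enzyme and lowest for both binding proteins. Cyp26a1 passed with a pseudocount of 5 (adjusted p = 0.0241), and Crabp2 passed without mEpiSC 2 (0.0309) or without mEpiSC 3 (0.0494). EpiSC5 and EpiSC9 have 1 library each, so for them line and library cannot be told apart, and their spread was assumed to equal that of the lines with 2.

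**Figure D4:**
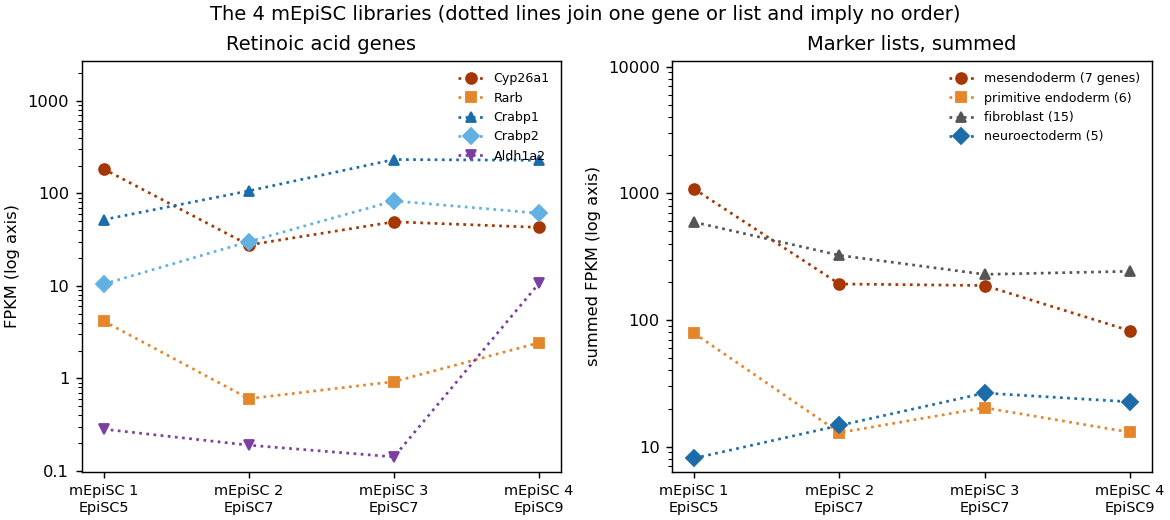
FPKM of 5 retinoic acid genes (left) and summed FPKM of 4 marker lists (right) in the 4 mEpiSC libraries, on logarithmic axes. EpiSC5 has the highest Cyp26a1 and Rarb and the lowest Crabp1 and Crabp2, together with the highest mesendoderm, primitive endoderm and fibroblast sums and the lowest neuroectoderm sum, and EpiSC9 alone holds Aldh1a2 above 1 FPKM.

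Marker sums also set EpiSC5 apart. In EpiSC5 the mesendoderm markers summed to 1081.5 FPKM against 82.3 to 192.4 in the other mEpiSC libraries, the primitive endoderm markers to 78.5 against 12.9 to 20.3, and the fibroblast markers to 592.0 against 229.1 to 323.9. The 5 neuroectoderm markers were lowest there, at 8.1 FPKM in a range that reached 26.5. Cer1 alone was 838.9 FPKM of the mesendoderm sum, and Sox7, Tagln, Acta2, Twist1 and Twist2 were highest in other mEpiSC libraries. Outside EpiSC5 the orders differed. The mesendoderm sum was 192.4 FPKM in mEpiSC 2, which had the lowest Cyp26a1 (27.7), and 82.3 in EpiSC9, with Cyp26a1 at 43.0. Whether cells of these types carry the Cyp26a1, Rarb, Crabp1 or Crabp2 values of EpiSC5 was not tested.

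The wider pathway lists, which include the 9 genes, hold 56 genes, of which 34 were tested, and 13 of these were higher and 4 lower in mEpiSC (limma, 17 of 34 called, beside 37.3% of all genes, median difference 0.45 beside 0.08). The counts were 6 higher and 4 lower with libraries averaged to 1 value per line, and 9 and 4 with line as a random block. Calls over all 11556 genes fell as well, from 2665 higher and 1640 lower. They were 865 and 557 with 1 value per line, and 1796 and 1046 with the random block. Of 18 genes listed under synthesis, which include enzymes that run the retinal step backwards, 8 were tested, 4 were higher and 0 lower. Only Rdh10 of these 4 is known as an oxidising enzyme of the pathway. Besides Rdh10 and Dhrs3 they were Rdh11 (0.74, adjusted p = 0.0112) and Rdh14 (0.84, adjusted p = 0.00894), reductases of the short-chain family that also act on retinal, whose adjusted p was 0.128 and 0.0683 with libraries averaged to 1 value per line. Adh5, the dehydrogenase with the highest level of the list, measured 163.3 ± 39.0 FPKM in mESC and 114.3 ± 44.8 in mEpiSC (difference -0.56, limma adjusted p = 0.127), and without mEpiSC 4 it was called lower (-0.80, adjusted p = 0.013).

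Aldh1a2, the dehydrogenase that makes retinoic acid from retinal in the early embryo, chosen here after its values were seen, measured 1.34, 1.09, 1.13 and 0.806 FPKM in mESC and 0.283, 0.190, 0.142 and 10.7 in mEpiSC. EpiSC9 was above every other library, and the other mEpiSC libraries were below every mESC library. Between states the difference was 0.03 (limma adjusted p = 0.978), and without EpiSC9 it was -0.79 (adjusted p = 0.00309), a call in the direction of mESC. Among the mEpiSC lines Aldh1a2 passed the F test (adjusted p = 0.00368), with EpiSC9 3.33 above EpiSC7 on the log2 scale, and it was the single pathway gene to do so.

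Of 12 genes of uptake, binding and storage 7 were tested, and 4 were higher and 1 lower, with a median of 1.59. Over all genes tested 23.1% were higher and 14.2% lower, with a median of 0.08. Stra6 and Rbp7 reached 1 FPKM only in the state where they were high. They entered the test through it, and their calls are part of these counts and of those for all lists. Stra6, the membrane receptor that takes up retinol, measured 0.188, 0.590, 0.170 and 0.754 FPKM in mESC and 4.73, 2.38, 3.56 and 3.98 in mEpiSC (difference 1.71, limma adjusted p = 0.000566). Fabp5, a fatty acid carrier that can also bind retinoic acid, measured 3.43 ± 1.29 and 17.3 ± 7.56 FPKM (2.00, adjusted p = 0.002). In both genes the states did not overlap.

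Rbp4, the carrier of retinol in blood, was higher by 1.60 (adjusted p = 0.034) with overlapping states and its highest value, 17.1 FPKM, in EpiSC5. That call was lost in 10 of its alternatives, with adjusted p values of 0.0734, 0.0711, 0.0873 and 0.0611 without mESC 1, mESC 2, mESC 3 and mEpiSC 4. Rbp7, a cellular retinol-binding protein, was lower by contrast, at 1.40 to 2.14 FPKM in mESC and 0.000 to 0.153 in mEpiSC (-1.39, limma adjusted p = 0.000183).

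Of 6 receptor genes 5 were tested, with Rxra higher and Rarg lower, beside 23.1% and 14.2% of all genes tested. All 8 cofactors were tested and their median difference was -0.03, beside 0.08 over all genes tested. Ncoa3, a coactivator of nuclear receptors, was lower in mEpiSC, at 28.7, 24.0, 34.6 and 26.3 FPKM in mESC and 8.78, 9.11, 11.0 and 7.79 in mEpiSC (-1.53, limma adjusted p = 0.000179). Hdac3, the deacetylase of the corepressor complex, was higher by 0.47 (adjusted p = 0.0243), a call lost without mESC 1, mESC 3 or mEpiSC 2 (0.0708, 0.072 and 0.062). Ncor1, the corepressor with the highest level, did not pass (26.4 ± 7.50 and 23.8 ± 6.93 FPKM, adjusted p = 0.724).

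Of 14 genes known to respond to retinoic acid 9 were tested, and 5 were higher and 1 lower, with a median of 1.71. Over all genes tested 23.1% were higher and 14.2% lower, with a median of 0.08. Stra6 and Stra8 entered the test only through the state where they were high, and their calls are part of these counts. The list shares Cyp26a1, Rarb, Dhrs3 and Crabp2 with the 9 genes, and Stra6 with the list of uptake, so its counts are not independent of theirs. Tgm2, a transglutaminase, measured 1.45, 0.915, 0.899 and 2.33 FPKM in mESC and 6.10, 5.78, 9.60 and 7.58 in mEpiSC without overlap (1.80, limma adjusted p = 0.000612). Meis2, a homeobox cofactor, was higher by 1.95 (adjusted p = 0.0268), with mESC 2 inside the mEpiSC range at 5.81 FPKM. It lost its call in 10 alternatives, with adjusted p values of 0.0718, 0.076 and 0.0601 without mESC 1, 3 and 4 and 0.0613, 0.0734 and 0.0547 without mEpiSC 2, 3 and 4.

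Stra8, a gene of the germline that retinoic acid induces there, went the other way. It measured 5.61, 2.92, 9.07 and 26.2 FPKM in mESC, was listed at 0.000 in mEpiSC 1 to 3 and measured 0.0448 in mEpiSC 4 (-3.18, limma adjusted p = 0.00156). Stra8 thus passed the filter through the mESC libraries only. It alone of the tested response genes was called lower. Within mEpiSC the response genes named here did not share an order. Cyp26a1, Rarb and Stra6 were highest in EpiSC5, Dhrs3 in the first EpiSC7 library, Crabp2 and Tgm2 in the second, and Meis2 in EpiSC9.

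**Figure D5:**
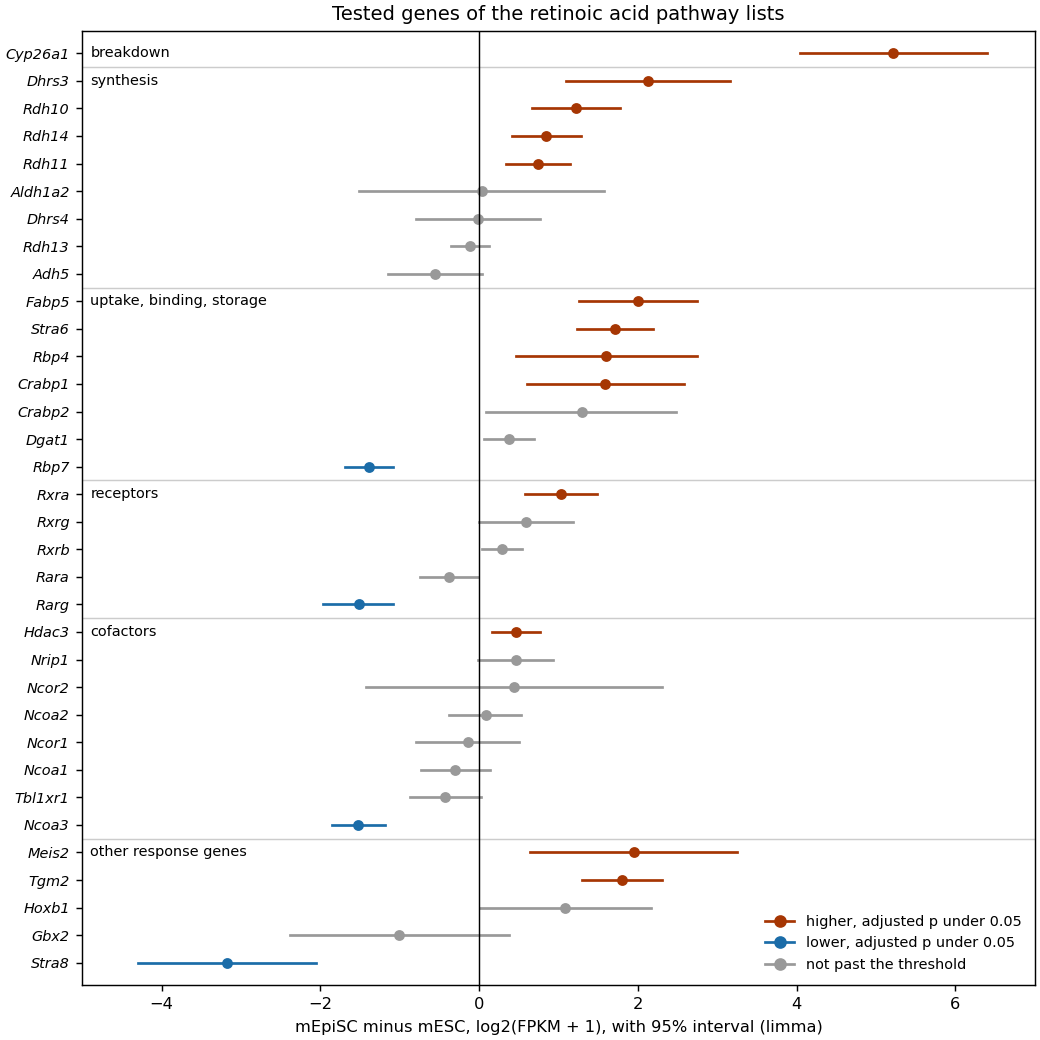
Difference between the states (mEpiSC minus mESC, log2(FPKM + 1), with 95% interval) for the 34 tested genes of the pathway lists, each shown once and grouped by role. Dark red marks the 13 genes called higher, blue the 4 called lower, and grey the 17 that did not pass.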

How the data were processed

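FPKM per gene, with the bounds of an interval and a status, were deposited as 1 table per library, made by the authors with TopHat2 2.0.6 and Cufflinks 2.0.2 on mm9, per the submitters' processing notes. Annotation and strand handling were not given in the sources used here. Entries were joined by symbol, and 248 symbols at several loci were left out. Positions are the deposited mm9 intervals, counted from 1. Samples were grouped by the labels, and 0 columns were left unused.

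States were compared with limma 3.58.1 (R 4.3.3, statmod 1.5.0, trend and robust options) on log2(FPKM + 1) for the 11556 genes that reached 1 FPKM in 4 or more libraries, and calls were made at a Benjamini-Hochberg adjusted p under 0.05. Lines were compared in a fit with 1 mean per line. Rarb, below the filter, had an exact permutation test. The fits were tested on simulated data. Depth was estimated from the deposited intervals, taken as 2 SD of a count; 80.3% to 81.2% of low genes came out whole (tolerance 0.05).

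The members and lists were chosen with earlier results of these data known; 1 gene of the lists is not reported here and is left out of their counts. Named genes were the 9 members, list genes past the test, 4 others with the highest level (Adh5, Ncor1, Rxrb and Dhrs4) and the 3 genes nearest to each member with an SD of at least 1; Aldh1a2, Cyp26b1, Cyp26c1, Top2b and the marker T were added after their values were seen. Libraries of the same number deviated from their group means with correlations of 0.22, 0.15, 0.18 and 0.51 across genes, all above 0.1. The main tests left the libraries unpaired. Replicate number served as a block only among the alternatives and in the sign-flip test of Rarb. No label names such pairs, and they were proposed only after these correlations were seen. Unlike numbers reached 0.21 (mESC 3 with mEpiSC 2) and 0.19 (mESC 2 with mEpiSC 3), above the same-number values of those libraries. Others passed 0.1 at 0.12 (mESC 1 with mEpiSC 2) and 0.11 (mESC 2 with mEpiSC 1), so replicate 4 alone stood clearly apart. Alternatives were other pseudocounts, filters, scalings and blocks, and leaving out each library. Promoters came from RefSeq (GRCm38.p6).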

Additional observations from a re-analysis of the deposited data

Results flagged for a closer look

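In 7 of 54 groups of 4 libraries 1 library lay apart, its gap to the nearest other library being more than the allowed share of the range (Dixon's 95% bound, which chance passes in about 5% of groups). The count and that rate are not directly comparable, because Aldh1a2, Cyp26b1 and Cyp26c1 were added after their values were seen, and because any value above 0 in 1 library stands apart where the other 3 are listed at 0.000, as for Stra8.

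Of these, 3 were among the 9 retinoic acid genes. Cyp26a1 in EpiSC5 measured 184.1 FPKM against 27.7 to 49.4 in the other mEpiSC libraries. Rdh10 in mESC 2 measured 4.65 FPKM against 2.11 to 2.29 in the other mESC libraries, and Crabp2 in mESC 3 measured 12.1 against 14.7 to 15.2.

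Meis2 also stood out in mESC 2, at 5.81 FPKM against 0.374 to 0.927 in the other mESC libraries. In the replicate 4 libraries, Ncor1 in mESC 4 measured 15.2 FPKM against 29.8 to 30.6, Aldh1a2 in EpiSC9 measured 10.7 against 0.142 to 0.283, and Stra8 in EpiSC9 measured 0.0448 where the other mEpiSC libraries were listed at 0.000.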

How the results depend on the processing

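Of 160 repeats (8 tested genes under 20 alternatives) 160 kept their direction and 151 also their side of the threshold. Cyp26a1, Rarg, Rdh10 and Dhrs3 kept both under all 20. With 1 mean per line 3 members were higher in place of 5, while all genes called higher fell from 2665 to 865. With quantile normalization 2 were lower in place of 1, beside 2207 of all genes in place of 1640. With the replicate number as a block 6 members were called, as without it, and Adh5 was called lower (adjusted p = 0.0143). The pathway lists then gave 15 higher and 7 lower in place of 13 and 4. Calls over all genes rose under that block to 3150 higher and 2055 lower. Among the mEpiSC lines 1 member passed with a pseudocount of 5, and 0 to 1 passed when 1 library was left out. Genes near 0 changed sign. Dhrs4 (-0.01) was 0.04 with line as a random block, 0.08 with 1 mean per line and -0.26 to 0.22 without 1 library, above 0 without mESC 1 (0.22), mESC 2 (0.19), mEpiSC 2 (0.07) or mEpiSC 3 (0.08). Aldh1a2 (0.03) was -0.68 with a pseudocount of 0.1, -0.03 with median ratio scaling, 0.00 with quantile normalization, -0.86 with replicates 1 to 3 only, and -0.79 to 0.33 without 1 library, below 0 without mESC 4 (-0.04) or mEpiSC 4 (-0.79). Ncor1 (-0.14) was -0.38 to 0.08 without 1 library, above 0 only without mEpiSC 4. The cause was not tested. Depth limits Rarb and the mESC values of Cyp26a1, which rest on as few as 9 and 14 fragments.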
